A study of Mus musculus with 18 samples.

Results

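The CC chemokines are small secreted proteins, named for a pair of adjacent cysteines near their start, that bind G protein-coupled receptors on leukocytes and draw those cells along a gradient. In the brain, microglia are a main source of them, and their release after a bleed is known to recruit monocytes and lymphocytes from the blood. Many of their genes are switched on by the transcription factors NF-kB and AP-1, and their mRNAs tend to be short-lived. The genes described here were taken by name, and Ccl2, Ccl3, Ccl4, Ccl5, Ccl6, Ccl7, Ccl9, Ccl12, Ccl17 and Ccl22 each stood on 1 gene ID, which made 10 of the 55487 genes listed.

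The RNA came from BV2, a microglial cell line of the mouse that was made immortal, in a form labelled BAK1-KD (KD here) and a form labelled NC. Oxyhemoglobin is the form of hemoglobin that carries oxygen and is freed when red cells break down after a bleed. Its labelled dose was 10 mM, and each line was harvested at 12 h and 24 h of it and without it (control, 0 h). Cells were plated 12 h before treatment, and each of the 6 groups had 3 libraries. The labels do not spell out NC or KD, nor say how the KD-labelled line was made or whether it is 1 clone. All untreated samples are from 0 h, so treatment and time in culture cannot be told apart. Nothing says that the 3 libraries of a group came from separate cultures, and p-values then measure only the spread between these libraries. Levels are relative to each library's total, so fewer cells making a transcript and less of it per cell cannot be told apart.

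Library totals ran from 4361313 to 6008810 counts, and 15996 genes passed the filter on low counts. Bak1, the gene named by the KD label, had 2, 4 and 7 counts in the KD control libraries, 4, 1 and 5 in the KD 12 h libraries and 12, 2 and 2 in the KD 24 h libraries. In the NC line it had 3, 3 and 0 counts in the control libraries, 2, 7 and 4 at 12 h and 1, 0 and 5 at 24 h. These counts are too few to check the labels, and Bak1 was not lower in the KD-labelled libraries, so KD is used below only as the label. All 12 markers of microglia and macrophages had counts, but some had few. Over the 18 libraries P2ry12 had 8 counts and Aif1 43, and neither passed the filter. Cx3cr1 had 191, Itgam 525 and Csf1r 670, and the other markers on this list had from 671 (Cd68) to 27132 (Spi1). The cell type was not tested with these counts. Of 32 markers of other cell types 18 had counts, and Tubb3, Mbp, Pecam1, Cd79a, Zbtb46 and Xcr1 were tested. The neuronal markers Rbfox3, Snap25 and Syt1, the lymphocyte markers Cd3e and Cd3g and the 4 globin genes were at 0 in all 18 libraries. Tubb3, a tubulin of neurons, had 368 counts in all and was higher in KD than in NC cells by 2.78 ± 0.47 (log2) at 12 h and 2.27 ± 0.48 at 24 h (edgeR adjusted p = 0.00240 and 0.0179). Cd79a, a B cell marker, had 210 counts and was called in no comparison. Mbp, a myelin protein, was lower in KD 12 h than in KD control libraries by -1.26 ± 0.42 (adjusted p = 0.0445). The part of these markers in the results was not tested. The libraries numbered 2 had the lowest value of their group on the second principal component in all 6 groups, and calls that change without them are named below.

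The members lie in 3 clusters, placed here on GRCm38 with GENCODE M21. Ccl2 (chr11:82035571-82037453) and Ccl7 (chr11:82045712-82047525) are 8.26 kb apart on the plus strand, with Ccl12 (chr11:82101845-82103400) 54.3 kb beyond Ccl7. A second cluster follows 1422 kb further along chromosome 11. It holds Ccl5 (chr11:83525778-83530518), Ccl9 (chr11:83572919-83578636), Ccl6 (chr11:83587882-83593087) and Ccl3 (chr11:83647844-83649355) on the minus strand, and Ccl4 (chr11:83662584-83664683) on the plus strand. Ccl9 and Ccl6 are 9.25 kb apart, and Ccl3 and Ccl4 13.2 kb. Ccl22 (chr8:94745590-94751699) and Ccl17 (chr8:94810453-94812036) lie 58.8 kb apart on chromosome 8, both on the plus strand, with Cx3cl1, a chemokine of another class, between them. No exon of a member overlapped an exon of another gene, and the share of a member's 50-base words found in other genes was 0% for each member except Ccl9, with 1.97%.

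Bases before the start of 4 members are shown because the results set these genes beside each other. Ccl9 and Ccl6 are neighbours on 1 strand that differed in the size of their rise, and Ccl17 and Ccl22 are neighbours that were counted mainly at 12 h. They come from RefSeq (GRCm38.p6), which gave a promoter window for 6 of the 10 members, and run 5′ to 3′ on the strand of the gene up to the base before the GENCODE M21 start. Capitals mark matches to the motifs searched.
Ccl9, chr11:83578637-83578886, minus strand: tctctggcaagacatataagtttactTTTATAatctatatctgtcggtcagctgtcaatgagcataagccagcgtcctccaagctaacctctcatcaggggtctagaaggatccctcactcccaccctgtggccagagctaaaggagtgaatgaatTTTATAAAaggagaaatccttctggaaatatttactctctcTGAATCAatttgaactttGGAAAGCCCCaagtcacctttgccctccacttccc
Ccl6, chr11:83593088-83593337, minus strand: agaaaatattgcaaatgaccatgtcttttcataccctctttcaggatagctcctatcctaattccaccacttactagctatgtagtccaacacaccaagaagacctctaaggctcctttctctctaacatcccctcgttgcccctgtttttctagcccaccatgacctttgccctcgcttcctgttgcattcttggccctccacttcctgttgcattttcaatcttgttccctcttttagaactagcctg
Ccl17, chr8:94810203-94810452, plus strand: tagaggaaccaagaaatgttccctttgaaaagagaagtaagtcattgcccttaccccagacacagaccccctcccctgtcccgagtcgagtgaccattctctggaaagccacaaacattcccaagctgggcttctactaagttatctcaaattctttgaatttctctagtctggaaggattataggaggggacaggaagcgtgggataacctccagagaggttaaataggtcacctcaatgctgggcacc
Ccl22, chr8:94745434-94745589, plus strand: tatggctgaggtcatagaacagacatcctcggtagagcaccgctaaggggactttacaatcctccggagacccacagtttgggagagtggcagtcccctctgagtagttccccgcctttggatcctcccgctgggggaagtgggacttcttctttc
The motifs were kappaB (GGGNNTTNC), AP-1 (TGANTCA), ISRE (GAAANNGAA) and the TATA box (TATAAA), searched on both strands in the 250 bases before the RefSeq start, from which the distances are counted. Of 32851 promoters, 13% held a kappaB match, 6.75% an AP-1 match, 7.13% an ISRE match and 12.4% a TATA match. Ccl9 held overlapping kappaB matches 35 and 34 bases before its start on the strand opposite to the gene, and an AP-1 match 53 bases before it. Its TATA matches lay 92, 94 and 224 bases before the start, of which the matches at 92 and 94 overlap. Ccl12 held a TATA match 31 bases before its start, and Ccl3 an ISRE match 39 bases before it on the opposite strand. No match was found in the windows of Ccl6, Ccl17 and Ccl22, which says only that these letters are not in those bases.

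The summed level of the CC chemokines was higher with oxyhemoglobin in both lines, and 3 of them, Ccl7, Ccl3 and Ccl4, made up most of it. Their summed level averaged 1009 ± 206 TPM in KD control libraries, 16383 ± 1620 TPM in KD 12 h libraries and 12342 ± 2119 TPM in KD 24 h libraries (SD, n = 3 each). TPM values are counts per gene length, rescaled to the same total in each library. The sums in the NC line were 1148 ± 297 TPM at control, 17177 ± 980 TPM at 12 h and 12464 ± 2456 TPM at 24 h. The sums of the treated libraries lay above those of the control libraries of their line in every case.

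The leading member differed between untreated and treated cells. At control Ccl3 made up 47.7 ± 3.4% of the summed TPM in KD libraries and 48.9 ± 4.1% in NC libraries, while Ccl7 held 4.96 ± 0.93% in KD libraries and 9.19 ± 0.61% in NC libraries. At 12 h Ccl7 held 47.9 ± 1.9% in KD libraries and 48.8 ± 1.7% in NC libraries, and Ccl3 held 34.9 ± 3.4% in KD libraries and 34.1 ± 1.7% in NC libraries. Among all genes ranked by mean TPM, Ccl7 was number 1532 in KD control libraries, 5 in KD 12 h libraries and 6 in KD 24 h libraries. In the NC line it was number 602 at control, 4 at 12 h and 7 at 24 h. At 12 h the order was Ccl7, Ccl3, Ccl4, Ccl9, Ccl2, Ccl5, Ccl6, Ccl17, Ccl22 and Ccl12 in both lines. The ranges of neighbours in that order overlapped between Ccl2 and Ccl5 in KD libraries and between Ccl22 and Ccl12 in NC libraries. At 24 h Ccl7 and Ccl3 overlapped in both lines. Levels between genes rest on the deposited lengths, which were 1.68 times the GENCODE M21 exon bases for Ccl2 and 1.90 times for Ccl12.

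**Figure D1:**
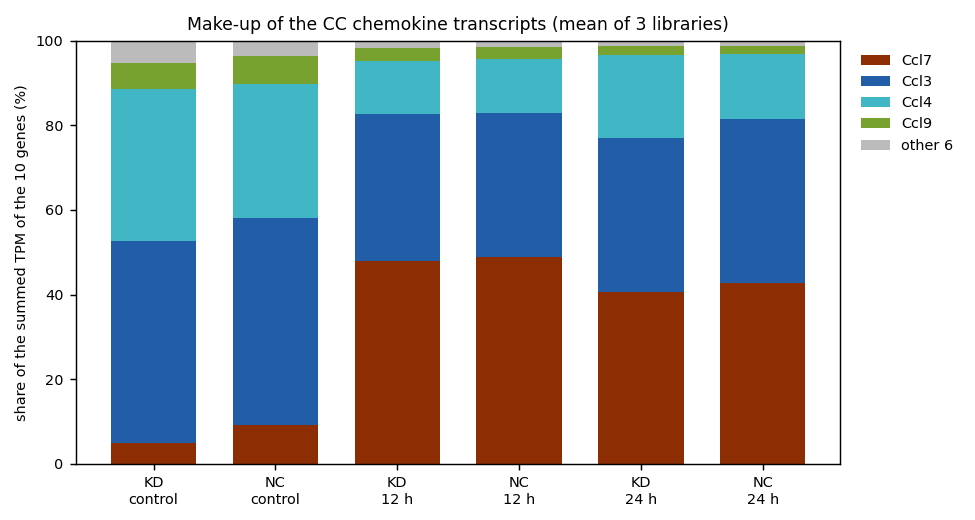
Share of the summed TPM of the 10 CC chemokines held by Ccl7, Ccl3, Ccl4, Ccl9 and the other 6 genes (y axis, percent), as the mean of 3 libraries for each line and time. Ccl7 held 4.96% in KD and 9.19% in NC control libraries, and 47.9% in KD and 48.8% in NC libraries at 12 h.

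The change with oxyhemoglobin was tested with edgeR's quasi-likelihood test on the counts, with p-values adjusted by Benjamini-Hochberg over all 15996 genes and 0.05 as the threshold. Ccl12 and Ccl22 had too few counts to be tested, and 8 of the 10 genes were. Ccl17 passed the filter on low counts only through its KD 12 h libraries, where it was high, so it is left out of the counts here and described further on. The other 7 had counts in all libraries. In KD cells 6 of these 7 rose at 12 h, where 7.93% of all genes rose, and 6 rose at 24 h, where 5.5% did. In NC cells 7 rose at 12 h, where 6.69% of all genes rose, and 6 rose at 24 h, where 4.66% did. None of the 7 fell against control. Their median log2 fold change was 2.88 in KD cells and 3.19 in NC cells at 12 h, beside 0.00 and -0.01 for all genes tested. At 24 h it was 2.83 in KD cells and 2.55 in NC cells, beside 0.00 for all genes in both. The 12 h and 24 h comparisons of a line share its control libraries.

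**Figure D2:**
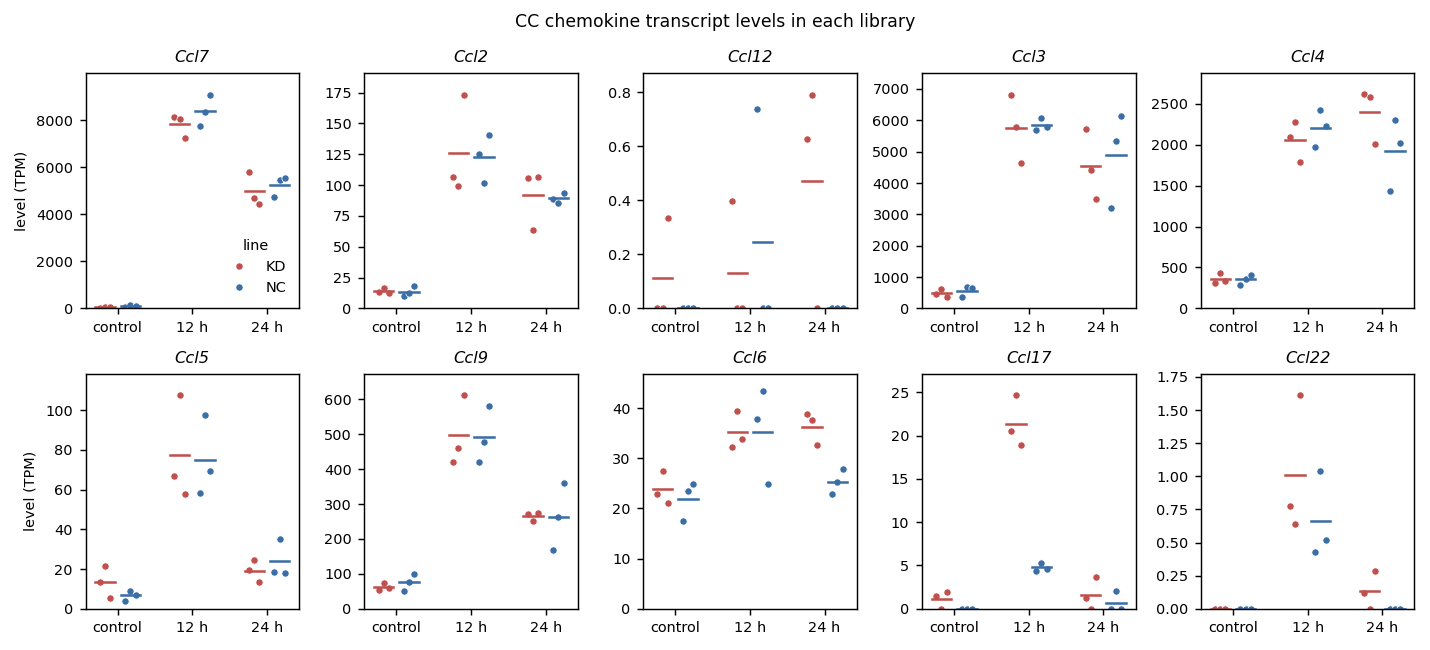
Level of each CC chemokine (y axis, TPM, from 0) in each library at control, 12 h and 24 h, with KD to the left of NC. Points are the 3 libraries of a group and bars their mean, and 7 of the 10 genes had counts in all 18 libraries.

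Ccl2, Ccl7 and Ccl12 are ligands of CCR2, the receptor by which inflammatory monocytes leave the bone marrow and enter tissue. Ccl7 had the largest change against control of the 7 members with counts in all libraries, at both times and in both lines. It stood at 39.3, 56.7 and 52.1 TPM in the KD control libraries, 8142, 8069 and 7254 TPM in the KD 12 h libraries and 5788, 4697 and 4448 TPM in the KD 24 h libraries. In the NC line it stood at 68.5, 126 and 125 TPM in the NC control libraries, 7739, 8346 and 9071 TPM in the NC 12 h libraries and 4727, 5468 and 5561 TPM in the NC 24 h libraries. In both lines every 12 h library was above every 24 h library, and these were above every control library. At 12 h Ccl7 rose by 7.18 ± 0.24 (log2 fold change ± SE) in KD cells, a 145-fold change, with an adjusted p of 2.04e-15 from edgeR's quasi-likelihood test. In NC cells it rose by 6.31 ± 0.23, a 79.1-fold change, with an adjusted p of 1.23e-14. At 24 h it was up by 6.74 ± 0.23 in KD cells (adjusted p = 5.41e-15) and 5.79 ± 0.22 in NC cells (adjusted p = 4.73e-14).

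Ccl2, the gene next to Ccl7, rose less and from a lower level per length. It stood at 13.2, 16.7 and 12.4 TPM in the KD control libraries, 106, 99.3 and 173 TPM in the KD 12 h libraries and 106, 63.4 and 107 TPM in the KD 24 h libraries. The NC line had 10.1, 12.3 and 18.1 TPM in the NC control libraries, 125, 101 and 141 TPM in the NC 12 h libraries and 89.0, 85.2 and 93.6 TPM in the NC 24 h libraries. In both lines the treated libraries lay above the control libraries, and the KD 24 h and 12 h libraries overlapped. At 12 h Ccl2 rose by 3.05 ± 0.30 (log2) in KD cells and by 3.19 ± 0.30 in NC cells (edgeR adjusted p = 2.01e-07 and 1.43e-07). At 24 h the changes were 2.83 ± 0.30 in KD cells and 2.89 ± 0.30 in NC cells (adjusted p = 8.28e-07 and 9.55e-07). The ratio of Ccl7 to Ccl2 in TPM was 3.52 ± 0.62 in KD control libraries, 66.6 ± 21.5 in KD 12 h libraries and 56.8 ± 16.3 in KD 24 h libraries (SD, n = 3). In NC cells that ratio was 8.01 ± 1.99 at control, 69.4 ± 11.2 at 12 h and 58.9 ± 5.6 at 24 h. Ccl12, the third gene of the cluster, had 8 counts in all 18 libraries together and reached no more than 2 in any of them. It was near the limit of detection throughout, and no change could be read from it.

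Ccl3, Ccl4 and Ccl5 draw T cells and monocytes, and Ccl3 and Ccl5 are ligands of CCR1. Ccl3 stood at 458, 612 and 379 TPM in the KD control libraries, 6819.9, 5795 and 4631 TPM in the KD 12 h libraries and 5736, 4424 and 3477 TPM in the KD 24 h libraries. In the NC line it had 364, 697 and 644 TPM in the NC control libraries, 5705, 6076 and 5778 TPM in the NC 12 h libraries and 3203, 5336 and 6139.9 TPM in the NC 24 h libraries. The treated libraries were above the control libraries in each line, and the 24 h and 12 h libraries overlapped. Ccl3 rose at 12 h by 3.48 ± 0.23 (log2) in KD cells and 3.37 ± 0.23 in NC cells (edgeR adjusted p = 2.53e-10 and 4.93e-10). At 24 h it was 3.34 ± 0.23 above control in KD cells and 3.26 ± 0.23 in NC cells (adjusted p = 9.89e-10 and 1.15e-09).

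Ccl4 lies 13.2 kb from Ccl3 on the opposite strand. It stood at 314, 436 and 333 TPM in the KD control libraries, 2088, 2279 and 1789 TPM in the KD 12 h libraries and 2617, 2581 and 2010.2 TPM in the KD 24 h libraries. NC libraries held 291, 365 and 409.9 TPM in the NC control libraries, 1970.5, 2422 and 2229.7 TPM in the NC 12 h libraries and 1429.8, 2302 and 2018 TPM in the NC 24 h libraries. Again the treated libraries were above control, and in the KD line the highest values fell at 24 h. Ccl4 rose by 2.39 ± 0.16 (log2) in KD cells and 2.61 ± 0.16 in NC cells at 12 h (edgeR adjusted p = 2.06e-10 and 6.09e-11). At 24 h the changes were 2.83 ± 0.16 in KD cells and 2.55 ± 0.16 in NC cells (adjusted p = 3.49e-11 and 1.46e-10). The ratio of Ccl3 to Ccl4 in TPM averaged 1.33 ± 0.17 in KD control libraries, 2.80 ± 0.40 in KD 12 h libraries and 1.88 ± 0.27 in KD 24 h libraries. In the NC line it was 1.58 ± 0.33 at control, 2.67 ± 0.20 at 12 h and 2.53 ± 0.44 at 24 h. In both lines every 12 h ratio was above every control ratio, and the KD 24 h ratios, 1.71 to 2.19, lay below the NC 24 h ratios, 2.24 to 3.04.

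Ccl5 followed another time course. It stood at 13.3, 21.8 and 5.65 TPM in the KD control libraries, 66.7, 108 and 57.8 TPM in the KD 12 h libraries and 19.4, 24.5 and 13.6 TPM in the KD 24 h libraries. In NC cells it had 4.13, 9.18 and 6.97 TPM in the NC control libraries, 58.3, 97.4 and 69.4 TPM in the NC 12 h libraries and 18.5, 35.1 and 18.02 TPM in the NC 24 h libraries. The 12 h libraries were the highest in both lines. At 24 h the KD libraries overlapped the KD control libraries, while the NC 24 h libraries stayed above the NC control libraries. At 12 h Ccl5 rose by 2.41 ± 0.29 (log2) in KD cells and 3.44 ± 0.31 in NC cells (edgeR adjusted p = 2.26e-06 and 5.27e-08). At 24 h the difference from control was 0.62 ± 0.30 in KD cells, with an adjusted p of 0.224, or 0.0202 with the library number as a block. In NC cells Ccl5 was still up at 24 h, by 1.95 ± 0.32 (adjusted p = 0.000248).

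Ccl9 and Ccl6 bind CCR1 and are made by macrophages and other myeloid cells of the mouse. Ccl9 stood at 53.0, 74.1 and 59.9 TPM in the KD control libraries, 421, 462 and 614 TPM in the KD 12 h libraries and 272, 252 and 276 TPM in the KD 24 h libraries. The NC line had 51.0, 76.8 and 100.4 TPM in the NC control libraries, 419.9, 478 and 580.1 TPM in the NC 12 h libraries and 168, 263 and 359 TPM in the NC 24 h libraries. The 12 h libraries were above the 24 h libraries and these above the control libraries in both lines. Ccl9 rose at 12 h by 2.88 ± 0.25 (log2) in KD cells and 2.70 ± 0.25 in NC cells (edgeR adjusted p = 1.85e-08 and 6.05e-08). At 24 h it was up by 2.202 ± 0.24 in KD cells and 1.94 ± 0.24 in NC cells (adjusted p = 1.15e-06 and 9.23e-06).

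Ccl6, the neighbour of Ccl9 on the same strand, changed least of the tested members at 12 h. It stood at 22.8, 27.4 and 21.2 TPM in the KD control libraries, 32.2, 39.4 and 33.9 TPM in the KD 12 h libraries and 38.8, 37.7 and 32.6 TPM in the KD 24 h libraries. NC cells had 17.5, 23.6 and 24.9 TPM in the NC control libraries, 37.8, 43.4 and 24.8 TPM in the NC 12 h libraries and 22.9, 25.3 and 27.9 TPM in the NC 24 h libraries. In the KD line all treated libraries were above the control libraries, and in the NC line the groups overlapped. In KD cells Ccl6 differed from control at 12 h by 0.44 ± 0.17 (log2), with an edgeR adjusted p of 0.0879, or 0.0152 with the library number as a block. At 24 h it rose by 0.71 ± 0.17 in KD cells (adjusted p = 0.00792). That call was lost without the libraries numbered 2 (0.0506) and with limma on log2(TPM + 1) or log2(TPM + 0.1) (0.0902 and 0.0901). In NC cells the 12 h change was 0.65 ± 0.17 (adjusted p = 0.0127). That call was lost in 8 of the 29 other settings. They were the fit with no filter (adjusted p = 0.0534), limma on log2(TPM + 1) and log2(TPM + 0.1) (0.0539 in each) and the fit of the compared groups alone (0.0775). It was also lost without NC 12 h library 1 (adjusted p = 0.0951), NC 12 h library 2 (0.0546), NC control library 2 (0.0732) or all libraries numbered 2 (0.143). At 24 h the NC difference was 0.36 ± 0.17 (adjusted p = 0.259).

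**Figure D3:**
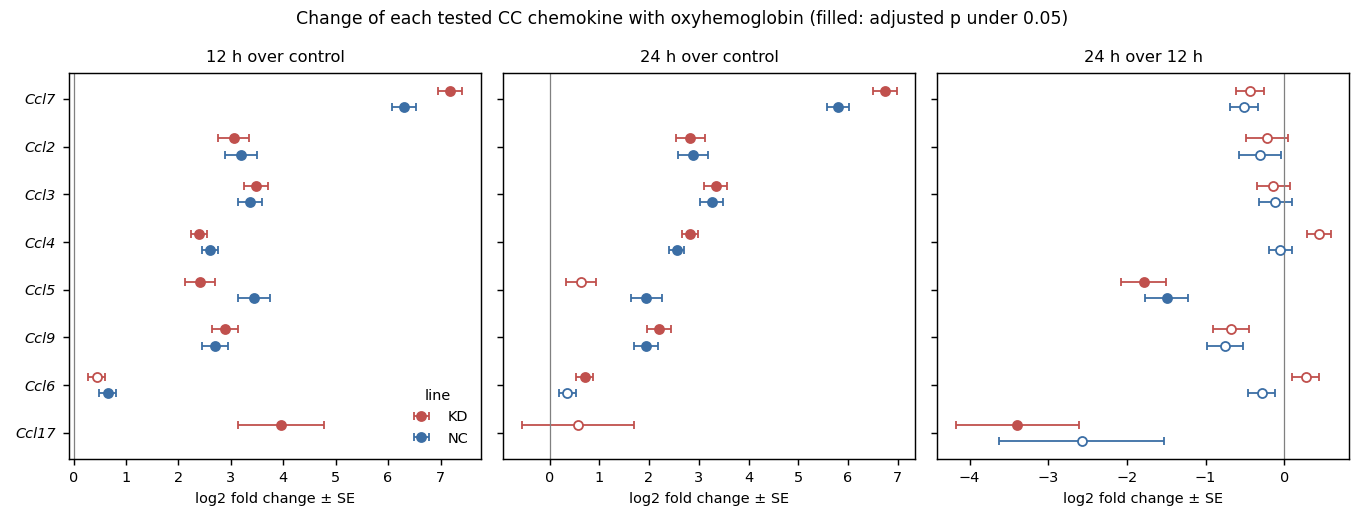
Log2 fold change with its standard error (x axis) of the 8 tested CC chemokines (y axis) for 12 h over control, 24 h over control and 24 h over 12 h, with KD above NC, where filled points have an adjusted p under 0.05. Ccl17 against NC control is left out because those libraries had no count of it, and Ccl7 lies farthest right at 12 h, at 7.18 in KD and 6.31 in NC cells.

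Ccl17 and Ccl22 are the ligands of CCR4, a receptor of regulatory and type 2 helper T cells, and are typical products of dendritic cells and alternatively activated macrophages. Ccl17 had 2, 0 and 3 counts in the KD control libraries, 26, 30 and 23 counts in the KD 12 h libraries and 2, 0 and 5 counts in the KD 24 h libraries. NC libraries had 0, 0 and 0 counts in the NC control libraries, 6, 7 and 7 counts in the NC 12 h libraries and 0, 3 and 0 counts in the NC 24 h libraries. Only at 12 h was it counted in every library of a group, and the KD 12 h libraries lay above all others. In KD cells its rate at 12 h was 16.6 times that at control (exact 95% interval 6.81 to 52.5, counting error only), and edgeR's log2 fold change was 3.96 ± 0.82 (adjusted p = 0.00132). In NC cells, with 0 counts at control, it was at least 6.63-fold higher at 12 h, taking 3 counts over the group as the floor (adjusted p = 0.0109). At 24 h Ccl17 was back near its control level, with a rate 1.43 times control in KD cells (0.390 to 5.71) and 3 counts in NC cells. Since Ccl17 was tested because it was high in its KD 12 h libraries, the p-values of comparisons with that group describe a gene chosen on it.

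Ccl22 had 0, 0 and 0 counts in the KD control libraries, 5, 4 and 10 counts in the KD 12 h libraries and 1, 0 and 2 counts in the KD 24 h libraries. The NC libraries had 0, 0 and 0 counts in the NC control libraries, 3, 7 and 4 counts in the NC 12 h libraries and 0, 0 and 0 counts in the NC 24 h libraries. It was counted in all 6 libraries at 12 h and in no control library, at least 6.65-fold higher at 12 h in KD cells and at least 4.64-fold higher in NC cells. In an edgeR fit of all 28940 genes with a count, its adjusted p for 12 h against control was 0.00881 in KD cells and 0.0328 in NC cells. Markers of dendritic cells were checked beside these genes, and all 4 (Zbtb46, Xcr1, Flt3 and Cd209a) had counts in some library. Their summed level was 0.959 to 0.965 TPM in KD control, 1.63 to 3.49 TPM in KD 12 h and 0.779 to 1.67 TPM in KD 24 h libraries. In the NC line it was 2.97 to 4.09 TPM at control, 3.79 to 6.33 TPM at 12 h and 2.91 to 4.65 TPM at 24 h. Of these markers, only Xcr1 and Zbtb46 were tested. Xcr1 rose at 12 h by 2.28 ± 0.48 (log2) in KD cells and 1.97 ± 0.43 in NC cells (edgeR adjusted p = 0.00139 and 0.00271), as Ccl17 did. Zbtb46 was not called at 12 h in either line, and its difference in NC cells was -0.35 ± 0.25 (adjusted p = 0.425). At 12 h the sums were lower in the KD libraries, where the Ccl17 counts were higher, and their part in these results was not tested.

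Set against 12 h, Ccl5 was called lower at 24 h in both lines and Ccl17 in the KD line. In KD cells Ccl5 fell by 1.79 ± 0.28 on the log2 scale (edgeR adjusted p = 0.000278), 1 of the 7 members with counts in all libraries, where 1.46% of all genes fell. Ccl17, tested only because of its KD 12 h libraries, fell by 3.39 ± 0.78 (adjusted p = 0.0105). The Ccl17 call was lost without KD 24 h library 1 (adjusted p = 0.0727) or library 2 (0.0535). In NC cells Ccl5 fell by 1.49 ± 0.27 (adjusted p = 0.00260), 1 of the 7, where 1.13% of all genes fell. Ccl17 differed by -2.58 ± 1.047 in NC cells (adjusted p = 0.222). Ccl7 differed by -0.44 ± 0.18 in KD cells and -0.52 ± 0.18 in NC cells (adjusted p = 0.229 and 0.146), and Ccl9 by -0.68 ± 0.23 in KD cells and -0.76 ± 0.23 in NC cells (adjusted p = 0.117 and 0.0874). Ccl4 differed by 0.44 ± 0.15 in KD cells (adjusted p = 0.111). In KD cells DESeq2 called Ccl4 (adjusted p = 0.0360), and the fit with no filter called Ccl9 (0.00945). In NC cells DESeq2 called Ccl7 (0.04999) and Ccl9 (0.0444), and the fit with no filter called Ccl9 (0.00371).

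With the library number as a block these comparisons called more members. In KD cells Ccl4 then rose (adjusted p = 0.00110), 1 member where 6.85% of all genes rose, and Ccl7, Ccl9 and Ccl5 fell, 3 of the 7 members with counts in all libraries, where 5.48% fell, as did Ccl17. The adjusted p with the block was 0.0104 for Ccl7 and 2.81e-06 for Ccl9 in KD cells. In NC cells Ccl5, Ccl7 and Ccl9 fell, 3 of the 7, where 6.12% of all genes fell, with an adjusted p of 0.00365 for Ccl7 and 1.73e-07 for Ccl9. Without NC 24 h library 3 and with no block, Ccl9 also passed in NC cells, at -1.08 ± 0.23 (adjusted p = 0.0169).

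The lines were compared at each time to ask whether the KD-labelled cells differed in these genes. At control 1 member differed. Ccl7 was lower in KD cells by a log2 difference of -1.14 ± 0.20 (edgeR adjusted p = 0.00156), where 1.3% of all genes were lower, and the 3 KD libraries, 39.3 to 56.7 TPM, lay below the 3 NC libraries, 68.5 to 126 TPM. Ccl5 differed by 0.92 ± 0.33 (adjusted p = 0.194), and without KD control library 3 this became 1.22 ± 0.30 (adjusted p = 0.0470). The other members at control had differences between -0.33 and 0.06 with adjusted p-values of 0.646 or more, apart from Ccl17. It had 2, 0 and 3 counts in KD control libraries and 0 in each NC control library, which overlap (adjusted p = 0.397).

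At 12 h none of the 8 tested members passed in the comparison of KD with NC cells, where 1.6% of all genes did, and 1 had an unadjusted p under 0.05. That member was Ccl17, whose log2 difference was 1.98 ± 0.67 with an adjusted p of 0.164. DESeq2 and limma on log2 TPM also called 0 members. Its counts did not overlap between the lines, and the ratio of count rates was 4.22 (exact 95% interval 2.56 to 7.27, counting error only). With the library number as a block its adjusted p was 0.0266, 1 member where 4.42% of all genes were higher, and with only these 2 groups fitted it was 0.0307, where 0.275% were. Ccl17 was tested only because its KD 12 h libraries were high, so these values are no independent sign of a difference between the lines. The rate of Ccl22 in KD 12 h libraries was 1.45 times that in NC 12 h libraries (0.689 to 3.12). The other 7 tested members differed by -0.26 to -0.11 (log2), with standard errors of 0.15 to 0.26.

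**Figure D4:**
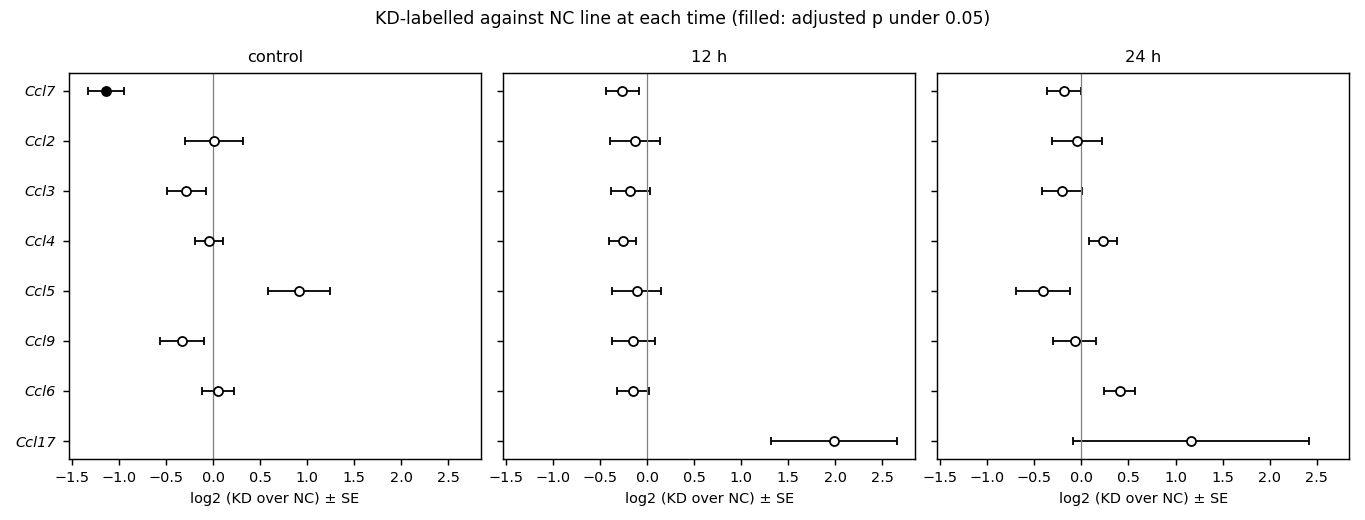
Log2 difference of KD over NC cells with its standard error (x axis) for the tested CC chemokines (y axis) at control, 12 h and 24 h, with filled points for an adjusted p under 0.05. Ccl7 at control, at -1.14, is the only filled point, and Ccl17 at control is left out because NC libraries had no count of it.

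At 24 h none of the 8 passed either, where 1.39% of all genes did, and 1 had an unadjusted p under 0.05. It was Ccl6, at a log2 difference of 0.41 ± 0.17 (edgeR adjusted p = 0.302), with 32.6 to 38.8 TPM in KD libraries and 22.9 to 27.9 TPM in NC libraries. DESeq2 and limma on log2 TPM called 0 here too. Averaged over the 3 times, Ccl7 was lower in KD cells by -0.53 ± 0.11 (adjusted p = 0.00200), 1 member where 5.98% of all genes were lower. Its difference was -1.14 at control, -0.26 ± 0.18 at 12 h and -0.19 ± 0.18 at 24 h. At 12 h and 24 h it was not called (adjusted p = 0.595 and 0.764), and the libraries of the lines overlapped. Ccl17 had an adjusted p of 0.0543 in that average, and 19 of the 27 other settings with a value left it uncalled. It passed at 0.0122 without the libraries numbered 2, 0.0138 with no filter, 0.0127 with DESeq2 and 0.0244 with limma on log2(TPM + 1). It also passed at 0.0191 with the library number as a block. Without library 2 of KD control, KD 24 h or NC 24 h alone it passed at 0.0267, 0.0302 and 0.0187. The average holds the KD 12 h libraries, and Ccl17 was tested only because these were high. These values are therefore no independent sign of a difference between the lines.

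The change with oxyhemoglobin was also compared between the lines as an interaction. For Ccl7 the change was larger in KD cells by 0.87 ± 0.26 at 12 h and 0.95 ± 0.26 at 24 h (log2), with adjusted p-values of 0.398 and 0.405 from edgeR. For Ccl5 it was smaller in KD cells, by -1.03 ± 0.42 at 12 h and -1.32 ± 0.44 at 24 h (adjusted p = 0.756 and 0.631). No member passed at 12 h, where 0.075% of all genes did, or at 24 h, where 0.0313% did. At each time 2 members, Ccl5 and Ccl7, had an unadjusted p under 0.05, and DESeq2 and limma on log2 TPM called 0. With the library number as a block both passed at 12 h and 24 h, where 331 and 193 of all 15996 genes did. The adjusted p was then 0.00796 and 0.00686 for Ccl7, and 0.0465 and 0.0196 for Ccl5. The labels do not say what a library number means, and the check of this block is given further on. The 12 h levels of Ccl7, 7254 to 8142 TPM in KD and 7739 to 9071 TPM in NC cells, overlapped.

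Of 15 receptor genes for CC chemokines, 5 were tested. Ccr1, a receptor of Ccl3, Ccl5, Ccl6 and Ccl9 among others, was the most abundant. It stood at 15.8, 17.95 and 17.5 TPM in the KD control libraries, 82.3, 71.1 and 96.1 TPM in the KD 12 h libraries and 96.5, 77.5 and 98.2 TPM in the KD 24 h libraries. NC cells had 69.1, 93.8 and 119 TPM in the NC control libraries, 126, 136 and 175 TPM in the NC 12 h libraries and 88.6, 112 and 191 TPM in the NC 24 h libraries. The KD control libraries lay below all other groups. Ccr1 was lower in KD than in NC control libraries by -2.50 ± 0.27 (log2, edgeR adjusted p = 8.96e-06), and it rose in KD cells by 2.16 ± 0.27 at 12 h and 2.51 ± 0.27 at 24 h (adjusted p = 5.48e-06 and 1.44e-06). In NC cells its change was 0.63 ± 0.25 at both times (adjusted p = 0.117 and 0.156). The difference between the lines in these changes was 1.53 ± 0.37 at 12 h and 1.88 ± 0.37 at 24 h (adjusted p = 0.165 and 0.0858).

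Ccrl2, an atypical receptor that binds the chemoattractant chemerin, rose in NC cells at 12 h by 1.503 ± 0.45 (log2, edgeR adjusted p = 0.0270), and in KD cells its difference was -0.23 ± 0.47 (adjusted p = 0.818). Ccr2, a receptor of Ccl2, Ccl7 and Ccl12 but not their only one, had 3 counts in all 18 libraries. Ccr4, the receptor of Ccl17 and Ccl22, had 47.

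Of 27 genes for transcription factors and mRNA decay factors that act on chemokine genes, 25 were tested. In KD cells 10 rose and 2 fell at 12 h, and 8 rose and 2 fell at 24 h. In NC cells 10 rose at 12 h and 7 at 24 h, and none fell. The shares of all genes that rose are given above, and the shares that fell were 8.06% at 12 h and 4.09% at 24 h in KD cells, and 5.55% at 12 h and 2.91% at 24 h in NC cells. Nfkbia, the inhibitor of NF-kB that NF-kB itself induces, stood at 45.2, 38.5 and 22.9 TPM in the KD control libraries, 203, 192 and 148 TPM in the KD 12 h libraries and 137, 147 and 80.1 TPM in the KD 24 h libraries. NC cells had 21.6, 37.8 and 31.2 TPM in the NC control libraries, 199.6, 216 and 189 TPM in the NC 12 h libraries and 148, 146 and 165 TPM in the NC 24 h libraries. Its 12 h and 24 h libraries lay above control in both lines, as those of Ccl2, Ccl3, Ccl4, Ccl7 and Ccl9 did. Nfkbia rose at 12 h by 2.24 ± 0.21 (log2) in KD cells and 2.73 ± 0.22 in NC cells (edgeR adjusted p = 9.10e-08 and 6.94e-09). Zc3h12a, an RNase that degrades inflammatory mRNAs, rose at 12 h by 1.98 ± 0.22 in KD cells and 2.45 ± 0.22 in NC cells (adjusted p = 7.41e-07 and 5.69e-08). Tnfaip3, a brake on NF-kB signalling, rose at 12 h by 2.23 ± 0.25 in KD cells and 1.22 ± 0.24 in NC cells (adjusted p = 8.54e-07 and 0.000966). Nfkb1, an NF-kB subunit, rose at 12 h by 1.22 ± 0.15 in KD cells and 1.21 ± 0.15 in NC cells (adjusted p = 2.78e-06 and 5.06e-06). Fosl1, an AP-1 subunit, rose at 24 h by 3.96 ± 0.51 in KD cells and 3.79 ± 0.54 in NC cells (adjusted p = 6.89e-06 and 3.92e-05).

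Irf7, a factor of the interferon response, was lower at 24 h than at 12 h, as Ccl5 was. Its log2 difference of 24 h from 12 h was -1.83 ± 0.30 in KD cells and -1.63 ± 0.30 in NC cells (edgeR adjusted p = 0.000697 and 0.00363). Zfp36, which speeds the decay of cytokine mRNAs, was higher at 24 h than at 12 h by 1.70 ± 0.44 in KD cells and 1.42 ± 0.39 in NC cells (adjusted p = 0.0256 and 0.0463). Fos, an AP-1 subunit, was lower in KD than in NC cells by -2.08 ± 0.23 at control, -2.37 ± 0.23 at 12 h and -1.41 ± 0.22 at 24 h (adjusted p = 5.18e-06, 5.22e-06 and 0.00182). It was the 1 gene of the 25 called between the lines at each time. Of all 15996 genes, 330 were called at control, 256 at 12 h and 223 at 24 h. The levels of Fos were 5.61 to 9.20 TPM over the 9 KD libraries and 19.7 to 34.1 TPM over the 9 NC libraries, which did not overlap.

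Of 20 tested genes for signalling from chemokine receptors, 1 rose and 2 fell in KD cells at 12 h. Of all genes 7.93% rose and 8.06% fell there. In KD cells at 24 h 2 rose and 3 fell, where 5.5% of all genes rose and 4.09% fell. In NC cells 2 rose and 2 fell at 12 h, where 6.69% of all genes rose and 5.55% fell. At 24 h 1 rose and 2 fell in NC cells, where 4.66% of all genes rose and 2.91% fell. Several of these counts lie above the shares of all genes, but counts this small were not tested against them. Nothing is read from them for the list. Rgs2, which switches off G protein signals, fell at 12 h by 1.06 ± 0.17 on the log2 scale in KD cells and by 1.46 ± 0.18 in NC cells (edgeR adjusted p = 0.000109 and 3.92e-06). Arrb1, a beta-arrestin that desensitises receptors, fell at 12 h by 0.99 ± 0.17 in KD cells and by 1.00 ± 0.17 in NC cells (adjusted p = 0.000191 and 0.000254). Rac2, a small GTPase of leukocyte movement, rose in NC cells by 1.09 ± 0.25 at 12 h and 1.10 ± 0.25 at 24 h (adjusted p = 0.00512 and 0.00719). None of the 20 was called between the lines at any of the 3 times, and few of all 15996 genes were. Those were 330 at control, 256 at 12 h and 223 at 24 h, so nothing is read from this count. The other CC chemokine symbols, 11 on 15 gene IDs, included 1 tested gene, Ccl25, a ligand of CCR9 known from thymus and gut. Ccl25 ranged from 5.77 to 13.04 TPM and was called in no comparison.

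Across the 18 libraries, the gene whose log2 CPM was most like that of Ccl7, among 10789 genes that are not CC chemokines, was Cpd, a carboxypeptidase (Pearson r 0.994), and then Csf3, the granulocyte growth factor (0.992). Cpd was also most like Ccl3 (0.989). Lix1 was most like Ccl4 (0.988), and Lcn2, an iron-siderophore binding protein, most like Ccl2 (0.988). Il1rn, the antagonist of the interleukin-1 receptor, was most like Ccl9 (0.978). Ccl5 was most like Cflar, an inhibitor of caspase-8 (0.935), and Mmp13, a collagenase (0.928). The likeness was lower for Ccl17, with Casz1 (0.892), and for Ccl6, with Pla2g2a, a secreted phospholipase (0.872). Among the members, Ccl3 and Ccl7 were the most alike (0.991). These correlations carry the differences between the groups, those between treated and control among them. After group means were taken out, Ccl3 and Ccl4 correlated at 0.636 and Ccl2 and Ccl9 at 0.664, while Ccl2 and Ccl5 correlated at -0.492. These were the highest and lowest values among the pairs of tested members. In CPM, Ccl5 was highest in the library numbered 2 of every group, and Ccl2 was lowest there in every group but KD control. The part of the library number in these correlations was not tested.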

How the data were processed

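The authors deposited read counts per gene, as whole numbers with no normalization, and TPM for the same 55487 genes in 18 libraries. Per the submitters' processing notes they used bcl2fastq, HISAT2 2.2.0, featureCounts and DESeq2 with GRCm38. Neither the annotation release nor the use of strand in counting is given in the sources used here. Dividing the deposited counts by the lengths in the same table and rescaling gave back the deposited TPM within 4.89e-05. Positions came from GENCODE M21, which held 55227 of the gene IDs. Its exon bases differed from the deposited lengths for 6 members, which affects levels set between genes.

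The sample titles gave each library its group and number. Libraries of 1 group always differed by more than counting noise, so none was taken as a library deposited more than once, and each counted as 1 sample as labelled. Counts were tested with edgeR 4.0.16 (quasi-likelihood test, with limma 3.58.1 under R 4.3.3) after TMM scaling and filterByExpr with a minimum count of 10, with 1 mean per group and 1 estimate of spread over all 18 libraries. The 15996 genes tested held 99.65% of the counts, and 1 gene, CT010467.2, held 12.9 to 25.3% of each library. P-values were adjusted by Benjamini-Hochberg over all genes tested, with a threshold of 0.05. The SE of an edgeR log2 fold change was worked back from its test. It is the size of that change before shrinkage, divided by the square root of the F statistic. The procedure was tested on simulated data. TPM describe levels, and CPM were used on a log2 scale with a prior count of 2 for correlations. Intervals on ratios of count rates are exact, at 95%, and cover counting error only.

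The members, the gene lists and the tests were chosen with earlier results of these data known. All 10 members are named in each comparison, with up to 3 genes per list, those of lowest adjusted p there, and the genes most like each member among those with at least 5 CPM. Values given beyond that rule, those of Ccr2, Ccr4 and of list genes in a line where they were not among these 3, were chosen after they were seen.

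Whether equal library numbers pair samples was checked by the correlation, over genes, of each library's deviation from its group mean with that of its namesake. Every such pair was above 0.1 when times were compared within a line, and when KD was compared with NC at 12 h. There the values with the number as a block are given where they change a call. What a number means is not in the labels. Other settings tried were RLE factors, upper-quartile factors, no filter, a filter of 5 CPM in 3 libraries, leaving out CT010467.2, DESeq2 1.42.0, limma-trend on log2(TPM + 1) and log2(TPM + 0.1), a replicate block, a fit without the groups that were not compared, each library left out in turn and, chosen after seeing the data, all libraries numbered 2 left out. Some receptor and marker genes are not reported here.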

Additional observations from a re-analysis of the deposited data

How the results depend on the processing

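The calls of Ccl7, Ccl2, Ccl3, Ccl4 and Ccl9 against control held under all 29 other settings tried, and no member value called in any setting changed sign. Of the 48 such values, 28 kept their call in every setting. Of the 48 values called in no setting, 25 changed sign or reached 0 in some setting. For KD against NC averaged over the times, 1 member was called, and 2 were with no filter, DESeq2, limma on log2(TPM + 1) or without the libraries numbered 2. For NC 24 h against 12 h, 1 member was called, and 2 with no filter or limma on log2(TPM + 1), 3 with DESeq2 and 0 with limma on log2(TPM + 0.1). For KD 24 h against 12 h, 2 were called, 3 with DESeq2 (Ccl4 added) or no filter (Ccl9 added), and 1 with a filter of 5 CPM, which left fewer genes tested, or with log2(TPM + 0.1). KD against NC at 12 h gave 0, and 1 with only those groups fitted. With each library left out in turn, the count ran from 1 to 2 for NC 24 h against 12 h, for KD 24 h against 12 h, for KD against NC at control and for the average. Over all genes tested, the other settings called 190 to 1841 genes for NC 24 h against 12 h and 421 to 1971 for KD 24 h against 12 h. For KD against NC they called 153 to 1496 genes at control, 97 to 1737 at 12 h and 1074 to 3902 in the average. The replicate block called the most each time. The cause of these shifts was not tested.

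With the replicate block, 3 members were called for NC 24 h against 12 h, 5 for KD 24 h against 12 h, 2 for KD against NC at control, 1 for KD against NC at 12 h, 3 for the average, and 2 for each interaction. In the average the added members were Ccl9 (adjusted p = 0.0355) and Ccl17 (0.0191). At control the added member was Ccl5 (adjusted p = 0.0123). In the interactions they were Ccl7 (adjusted p = 0.00796 at 12 h and 0.00686 at 24 h) and Ccl5 (0.0465 and 0.0196). In these comparisons of the lines the check of the pairing reached only 0.0703 at control and 0.0946 at 24 h for the libraries numbered 3. The block raised the calls over all 15996 genes as well, from 1958 to 3948 for NC 12 h against control and from 2558 to 4600 for KD 12 h against control. For 24 h against 12 h they went from 441 to 1841 in NC cells and from 684 to 1971 in KD cells. For KD against NC they went from 330 to 1496 at control, from 256 to 1737 at 12 h and from 1598 to 3902 in the average. For the interactions they went from 12 to 331 at 12 h and from 5 to 193 at 24 h. The block changed no other member's call than those named here and in the results. Limma on log2(TPM + 0.1) moved the median of all genes by up to -0.216 for KD 24 h against 12 h. The average over times uses all groups, so fitting the compared groups alone gives no value for it.

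Depth limits Ccl12, Ccl17 and Ccl22, whose counts per library reached no more than 2, 30 and 10. With 3 libraries a group, differences of the size seen for Ccl5 and Ccl6 between the lines did not pass the threshold in the fit used for the results. This does not show that the lines are alike. The Ccl5 difference at control did pass with the replicate block and without KD control library 3.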
